A study of Mus musculus with 12 samples.

Results

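A set of 200 array probes read RNA that was higher 24 h after tetracycline (Tc) than before it and had returned toward its starting level by 72 and 96 h. They were taken from 42006 probes, of which 39515 met the signal limits of the selection. For each probe the log2 ratio of sample over reference was averaged within each time. A member lay at least 0.5 log2 units above the untreated level at 24 h. It stood at least 0.5 units higher at 24 h than at the end of the course, defined as the mean of the 72 and 96 h arrays. The end lay less than 1 unit from the untreated level. The sample signal also had to be well above background on both 24 h arrays, and the reference signal on all 12 arrays. These measured values chose the members, so the height at 24 h and the return are given as a description, with no test.

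The cells were 2TS22C, a mouse embryonic stem cell line with an inducible Sox2 knockout, grown in GMEM medium with LIF at all times. Cells without Tc (0 h) and cells harvested 3, 6, 12, 24, 48, 72 and 96 h after Tc were each hybridised against a mouse reference pooled from cell lines, on 2-colour arrays with the sample in Cy3 and the reference in Cy5. Duplicate arrays (2 each) exist for 0, 6, 24 and 72 h, and single arrays (1 each) for 3, 12, 48 and 96 h. All samples came from this one line, the labels give no Tc-treated line that keeps Sox2, and the descriptions call all samples untreated, whereas titles and sources, followed here, give Tc after 0 h. The image analysis of all 6 arrays from 0 to 12 h was run on one day and that of all 6 arrays from 24 to 96 h on another. The median net signal (mean minus local background) was 97.1 to 120 units in Cy3 and 230 to 283 in Cy5 on the first day, and 122 to 221 and 335 to 429 on the second. The rise from 0 to 24 h therefore crosses the image analysis days, so that this day and the effect of time cannot be told apart there. The fall from 24 h to 72 and 96 h lies inside the second image analysis day.

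Sox2 is a transcription factor that pairs with Oct3/4 on DNA elements of many genes active in embryonic stem cells. In lines of this kind both chromosomal copies are disrupted and a transgene, which Tc switches off, supplies the protein. Loss of Sox2 is known to drive mouse embryonic stem cells toward trophectoderm-like cells even in the presence of LIF, the cytokine that otherwise supports self-renewal.

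The probes are 60 bases long, and the files repeat each probe's name in the place of a gene name, so the members are described as probes and not as genes. Which probe reads Sox2, and whether the cells held markers of stem cells or of other cell types, was not analysed here. The 2 members with the largest calculated change at 24 h are shown first; the second of them was not well above background at 0 h, so that its size and rank are uncertain.

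Z00022566-1: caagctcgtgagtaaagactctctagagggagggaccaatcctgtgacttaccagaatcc

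Z00037855-1: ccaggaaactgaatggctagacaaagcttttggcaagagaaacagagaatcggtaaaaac

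The next 2 fell most at 48 h among members called in a test described further on.

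Z00012976-1: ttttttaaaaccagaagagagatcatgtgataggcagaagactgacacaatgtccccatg

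Z00020605-1: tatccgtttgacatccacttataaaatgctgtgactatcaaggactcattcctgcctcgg

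The last 2 were chosen after their values were seen, because their peak rested on 1 of the 24 h arrays. Capitals in the first of them mark the letters AATAAA, the common form of the signal for cleavage and polyadenylation that lies near the 3′ end of messenger RNAs.

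Z00031686-1: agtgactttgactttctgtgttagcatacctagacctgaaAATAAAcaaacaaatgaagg

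Z00036669-1: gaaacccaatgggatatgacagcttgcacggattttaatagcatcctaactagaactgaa

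One member, Z00072951-1, had an exact match over all 60 bases to 1 of 32851 RefSeq windows of 300 bases around gene starts (GRCm38.p6). The match lay at chr5:137612512-137612571, upstream of the start of the long non-coding RNA gene Gm36266 and on the opposite strand to it. The position also fell inside the interval of the protein-coding gene Fbxo24, which encodes an F-box protein, at chr5:137612505-137625078. Exon, intron and strand of that gene were not analysed here, so the probe was not assigned to a gene. Its log2 ratio was -0.27 and -0.12 on the untreated arrays, -0.17 on the 3 h array, -0.06 and 0.18 on the 6 h arrays, and 0.32 on the 12 h array. The 24 h arrays read 0.35 and 0.60, the 48 h array -0.40, the 72 h arrays -0.73 and -0.96, and the 96 h array -0.86. It thus stood highest at 24 h and lay below both untreated arrays from 48 h on. It was called in neither of the comparisons described further on (limma adjusted p = 0.421 at 12 h and 0.0789 at 48 h).

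The members' median was higher at each successive time up to 24 h and lower at each one after it. Relative to the mean of the untreated arrays, their median log2 ratio was 0.04 higher at 3 h, 0.24 higher at 6 h and 0.50 higher at 12 h, and it reached 0.72 at 24 h. It was down to 0.38 at 48 h (quartiles 0.14 and 0.65), to 0.03 by 72 h (-0.20 and 0.23) and to -0.11 by 96 h (-0.35 and 0.14). The quartiles had been 0.12 and 0.35 in the 6 h means and 0.33 and 0.67 on the 12 h array. Over the 39515 probes within the signal limits, the median stayed between -0.01 and 0.01 at every time. The untreated arrays also entered the selection, so the members' changes measured from them are a description. At 24 h the members ranged from 0.50 to 1.77, with quartiles of 0.60 and 0.95, and 37 of the 193 that were well above background on a 0 h array were at least 2-fold up. The other 7 have only a bound at 0 h and are left out of that count. In these bulk samples a larger share of cells with an RNA and more of it per cell cannot be told apart. At 96 h they ranged from -1.27 to 1.08.

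The timing of the rise and of the return differed between members. Of the 200, 125 lay above their untreated mean at 3 h, and 188 and 196 did so by 6 h and 12 h. After the peak the number above it went down from 172 at 48 h to 105 in the 72 h means and 75 on the 96 h array. At least 50% of the 24 h change was present in 18 members at 3 h, in 49 members at 6 h and in 141 members at 12 h. It was still present in 102 members at 48 h, in 11 members at 72 h and in 9 members at 96 h. All of these counts use the 0 h arrays, and some the 24, 72 or 96 h arrays, which chose the members. The counts are therefore a description, and the same shares over all probes were not computed. The time of the highest mean was 24 h in 151 members, 12 h in 30, 48 h in 18 and 6 h in 1. The 48 h value lay between the 24 h mean and the end in 161 members, above the 24 h mean in 18 and below the end in 21.

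For description, the members were split by whether at least 50% of their 24 h change was present at 12 h and at 48 h. The most frequent shape, with 78 members, was early and gone by 48 h. Its median change from the untreated level was 0.61 at 12 h and 0.67 at 24 h, then 0.13 by 48 h and -0.24 by 96 h, and 61 of the 78 lay below their untreated mean at 96 h. A further 63 members were early and lasting, with medians of 0.61, 0.73, 0.59 and 0.00 at the same times, and 31 of them lay below at 96 h. The 39 late and lasting members had medians of 0.29, 0.92, 0.70 and 0.03, with 17 below at 96 h. The 20 narrow members had medians of 0.23, 0.69, 0.19 and -0.24, with 16 below at 96 h. The 24 h medians are fixed from below by the selection and the 12 h and 48 h medians by the split, so no test between shapes was made.

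By the end of the course 117 of the 200 members lay within 0.25 log2 units of their untreated level. The end was at least 0.5 units above it in 12 members and at least 0.5 units below it in 18. In 147 members the 96 h value was lower than the 72 h mean, although 96 h has 1 array. Both times entered the selection through the end, and the same share over all probes was not computed.

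The levels of the members lay high against the reference pool. The median over members of the mean log2 ratio over 12 arrays was 0.81, compared with -0.05 over probes within the signal limits. In 150 members (75%) it was above 0, compared with 45.7% of those probes. This mean includes the 24 h arrays, whose height chose the members, so part of the difference may follow from the selection. The median net signal of the members, averaged over the arrays, was 135 units in Cy3 and 202 in Cy5, and that of the probes within the limits 159 and 358. The median SD between replicate arrays was 0.0758 for members and 0.0468 for probes within the limits at 0 h, and 0.074 and 0.0491 at 24 h. An SD at 0 or 24 h rests on the arrays that chose the members. At 6 h, where only the reference signal entered the choice, it was 0.0743 and 0.0515.

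On single arrays, both 24 h values lay above every value of 0, 72 and 96 h in 192 of the 200 members, and above all 10 other arrays in 113. The 0, 24, 72 and 96 h arrays chose the members, so this separation largely follows from the selection and is no separate support. The same shares over all probes were not computed. Each 24 h array alone passed both limits in 136 members, and in the other 64 one of them missed a limit. The 24 h arrays were over 0.5 log2 units apart in 21 members and over 1 unit apart in 2. Untreated arrays could differ too: in 1 member they read -0.29 and 1.80, against 2.04 and 2.11 on the 24 h arrays. The rise of that member, counted as at least 2-fold, thus depends on the first untreated array. A spot had an outlier flag on a 24 h array in 1 member and on any array in 3. The sample signal was well above background on all 12 arrays in 186 members. On neither 0 h array was it well above background in 7, for which the untreated level is only a bound. Near the limits, the members closest to the edge at 24 h had changes of 0.5016, 0.5030 and 0.5106, and the nearest probes outside had 0.4987, 0.4966 and 0.4966. For the fall from 24 h to the end the nearest value inside was 0.5092 and outside 0.4994. The limit on the end alone kept out 3 probes, with distances from the untreated level of 1.0009, 1.1170 and 1.6003, and the signal flags alone kept out 48.

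The ratio holds both dyes, and the members were therefore also read in each. With Cy3 alone, normalized by quantiles between arrays, the median change of the members from 0 h was 0.08 on the 3 h array, 0.19 for 6 h, 0.34 on the 12 h array and 0.52 for 24 h. It was then 0.18 on the 48 h array, -0.02 for 72 h and -0.16 on the 96 h array. At 24 h 198 of the 200 lay above the untreated mean in Cy3 and 167 by more than 0.25. Of the 39515 probes within the signal limits, 20161 lay above it and 3542 by more than 0.25. In Cy5, with the same reference pool on all arrays, the medians for 3, 6, 12 and 24 h were 0.06, 0.08, 0.05 and -0.02, and that for 96 h was -0.15. Over the probes within the signal limits the Cy5 median was -0.06 by 96 h. At 24 h 12 of the 200 members were higher in Cy5 by more than 0.25, and 1 was lower by that much. Of the 39515 probes within the signal limits, 1882 were higher and 959 lower by that much. The sample signal is the numerator of the ratios that chose the members, so its course is a description and no separate support. These channels had a background correction with an offset, which shrinks changes of dim spots, and the ratio after the same correction and loess had a median of 0.61 at 24 h.

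Whether the members had begun to rise before 24 h was examined by a change between arrays whose ratios had no part in the selection, although their reference signal had to be well above background. The 12 h array was set against the mean of 3 and 6 h, all from the first image analysis day, in 1 limma fit of the 8 times over 41754 probes. The median change of the members was 0.34 log2 units, with quartiles of 0.20 and 0.51 and a range from -0.47 to 0.97, compared with 0.01 over all probes tested. The fitted change was above 0 in 189 members (94.5%), compared with 54.9% of all probes tested. The 12 h array lay above the 3 h array and both 6 h arrays in 161 members (80.5%), compared with 31.6%, and below them in 5 (2.50%), compared with 23.6%. At a Benjamini-Hochberg adjusted p under 0.05 with limma, 23 members (11.5%) had risen, where the share of all probes tested was 0.331%. The changes of these 23 ranged from 0.40 to 0.90 with a median of 0.60, and their adjusted p from 0.00705 to 0.0483. No member was called lower with limma, where the share of all probes was 0.438%. Times with 1 array were assumed to vary like the replicated ones, 0, 6, 24 and 72 h. The spread behind the SE and p-values thus came in part from the 0, 24 and 72 h arrays that chose the members. Only the changes themselves rest on arrays whose ratios lay outside the selection. The labels do not say whether replicates were separate cultures, so that p-values cover only the spread of these arrays, which may be technical.

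The number of calls moved with the arrays and the signal used, while the median change of the members stayed above 0 in every alternative run that holds the sample dye. Without either 24 h array 7 members (3.50%) were called at 12 h, without either 0 h array or the first 6 h array 8 (4.00%), and without the second 6 h array or either 72 h array 10 (5.00%). The calls over all probes were also fewer then, with shares called higher of 0.0862% when a 24 h array was left out, 0.0910% for a 0 h array, 0.110% for a 6 h array and 0.0982% for a 72 h array. On the 6 arrays of 0 to 12 h alone, with fewer residual degrees of freedom, 0 members and 0.00% of all probes were called with limma. The members' median change there was 0.34. With an offset of 50 and loess 87 members (43.5%) were called higher, compared with 1.48% of all probes, at a median change of 0.27. With Cy3 alone 4 (2.00%) were called higher, compared with 0.0432%, at a median change of 0.21. In Cy5 alone the members' median for this comparison was -0.02, and 0 members and 0.00% of all probes were called. Among the 136 members whose 24 h arrays each passed both limits, a set taken after seeing the data, 131 had a fitted change above 0 and 19 were called higher. Of all probes tested, 54.9% and 0.331% were so. The median of the 136 was 0.38.

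For comparison, 973 probes within the same signal limits were also up by 0.5 at 24 h but did not come down by 0.5 at the end. Their median changes from 0 h were 0.05, 0.18, 0.34 and 0.63 for 3, 6, 12 and 24 h, and 0.85, 0.80 and 0.87 for 48, 72 and 96 h. For 12 h against 3 and 6 h their median change was 0.21 with 84.8% above 0, and 5.14% were called higher with limma, compared with 0.34, 94.5% and 11.5% of the members. Both sets were chosen by a rise at 24 h, and no test was made between them.

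The state of the members at 48 h was tested against the mean of 3, 6 and 12 h in the same fit, with the same estimate of the spread. Here the members were split. At an adjusted p under 0.05 with limma 50 of the 200 (25.0%) were higher at 48 h, where the share of all probes tested was 12.0%, and 14 (7.00%) were lower, where it was 8.79%. The share of members called lower was thus close to that of all probes. The median change of the members was 0.13, with quartiles of -0.18 and 0.40 and a range from -1.25 to 1.33, compared with 0.00 over all probes, and it was above 0 in 121 members (60.5%), compared with 50.7% of all probes. The 50 called higher had changes from 0.19 to 1.33 with a median of 0.55, and the 14 called lower from -1.25 to -0.28 with a median of -0.70. The 48 h array lay above all 3, 6 and 12 h arrays in 74 members (37.0%), compared with 32.0% of all probes, and below all of them in 41 (20.5%), compared with 30.0%. Of the 973 probes that stayed up, 62.4% were called higher and 0.411% lower.

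This comparison crosses the image analysis days, so that the day of image analysis and the effect of time cannot be told apart here either. Its direction depended on the baseline: against 12 h alone the median change of the members was -0.10. With that baseline 12 members (6.00%) were called higher, where the share of all probes was 7.66%, and 25 (12.5%) lower, where it was 5.39%. With Cy3 alone the median was 0.02, with 36 (18.0%) called higher, compared with 6.62% of all probes, and 19 (9.50%) lower, compared with 8.57%.

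The member with the largest change at 24 h was Z00022566-1. Its log2 ratio was -0.76 and -0.70 on the untreated arrays, -0.80 on the 3 h array, -0.72 and -0.68 on the 6 h arrays, and 0.14 on the 12 h array. The 24 h arrays read 1.08 and 1.00, the 48 h array 0.59, the 72 h arrays 0.38 and 0.25, and the 96 h array 0.06. The probe was flat through 6 h, stood higher at 12 h than on all 5 earlier arrays, and was highest at 24 h. From 24 h on each later time was lower than the one before, and at 96 h the probe still lay above both untreated arrays. The mean was -0.73 ± 0.04 (SD, n = 2) at 0 h and 1.04 ± 0.06 (SD, n = 2) at 24 h. The change at 12 h against 3 and 6 h was 0.90 (SE 0.07, limma adjusted p = 0.0101), and at 48 h against 3, 6 and 12 h it was 1.05 (SE 0.07, limma adjusted p = 0.000399). The rise at 12 h was not called with Cy3 alone, where it was 0.65, nor on the arrays of 0 to 12 h alone, where it was 0.90. At 24 h Cy3 alone gave a change of 1.41 from 0 h and Cy5 alone -0.10. Net Cy3 signals were 119 and 114 units on the untreated arrays, 524 and 397 on those of 24 h and 315 on that of 96 h. Net signals, here and for the probes below, are not normalized between arrays. The array medians were higher from 24 h on, so net signals show brightness and do not measure the change from 0 h.

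The second probe by calculated change, Z00037855-1, was dim. Its log2 ratio was -1.22 and -2.08 on the untreated arrays, -1.35 on the 3 h array, -0.71 and -1.24 on the 6 h arrays, and -0.44 on the 12 h array. The 24 h arrays read 0.36 and -0.22, the 48 h array -0.49, the 72 h arrays -0.87 and -1.06, and the 96 h array -0.57. Both 24 h values lay above those of all other arrays, but the 0 h arrays were themselves far apart, at -1.65 ± 0.61 (SD, n = 2). Its sample signal was well above background on 6 of the 12 arrays and on neither 0 h array, with net Cy3 signals of 8.9 and 4.21 units on those and of 30.4 and 19.9 on the 24 h arrays. The untreated level is therefore only a bound, the rank of the probe is not settled, and the sample dye at 24 h was at least 1.25-fold higher. That bound is the 24 h mean of normalized log2 Cy3 against the higher of the probe's own signal and the lowest signal well above background. Neither comparison called it: the change was 0.73 (SE 0.40, limma adjusted p = 0.571) at 12 h and 0.43 (SE 0.38, limma adjusted p = 0.51) at 48 h.

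Among called members the largest falls at 48 h were those of Z00012976-1 and Z00020605-1. The log2 ratio of Z00020605-1 was 1.58 and 1.88 on the untreated arrays, 2.09 on the 3 h array, 2.07 and 2.43 on the 6 h arrays, and 2.70 on the 12 h array. The 24 h arrays read 2.25 and 2.36, the 48 h array 1.10, the 72 h arrays 0.97 and 1.10, and the 96 h array 0.60. It was highest at 12 h and lay below both untreated arrays from 48 h on, so that its 24 h values were already below the 12 h one. Its change at 48 h was -1.25 (SE 0.17, limma adjusted p = 0.00402), while that at 12 h was 0.53 (SE 0.17, limma adjusted p = 0.302). Net Cy3 signals were 415 and 501 units on the untreated arrays, 1026 on the 12 h array, 978 and 923 on the 24 h arrays, 305 on the 48 h array and 216 on the 96 h array.

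Z00012976-1 had much the same course at a lower signal. Its log2 ratio was 0.76 and 0.56 on the untreated arrays, 0.95 on the 3 h array, 1.01 and 1.34 on the 6 h arrays, and 1.68 on the 12 h array. The 24 h arrays read 1.08 and 1.26, the 48 h array 0.02, the 72 h arrays -0.12 and 0.04, and the 96 h array -0.27. It too was highest at 12 h and below both untreated arrays from 48 h on. Its change at 48 h was -1.25 (SE 0.15, limma adjusted p = 0.00289), and at 12 h it was 0.62 (SE 0.16, limma adjusted p = 0.196). Net Cy3 signals were 26.2 and 21.1 units on the untreated arrays, 38.5 and 33.6 on the 24 h arrays and 16.6 on the 48 h array. With Cy3 alone its change from 0 h was 0.12 at 24 h and -0.25 at 48 h, and that of Z00020605-1 was 0.77 and -0.76.

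In 2 members the 24 h arrays were over 1 log2 unit apart, and both had a high value on the second 24 h array alone. Z00031686-1 had log2 ratios of 0.06 and 3.05 at 24 h, with net Cy3 signals of 23.9 and 227 units, and lay between -0.55 and 0.10 on the other 10 arrays. Z00036669-1 had -0.99 and 1.47 at 24 h, with net Cy3 signals of 200 and 1858 units and net Cy5 signals of 993 and 1698, and lay between -1.45 and -0.96 elsewhere. The first 24 h array of both was within or close to the range of the other times. A spot of Z00036669-1 carried an outlier flag at 24 h, and with such spots left out Cy3 alone gave a change of 0.01, against 1.33 in the ratio. Z00031686-1 carried no such flag, and its change was 1.04 with Cy3 alone.

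Sequence was not used in the selection. The median GC content of the members was 42.5%, compared with 45% over probes within the signal limits and 41.7% over the 973 that stayed up. The letters AATAAA, as in Z00031686-1, stood in the printed strand of 41 members (20.5%), compared with 6.66% of the 39515 probes within the limits, 12% of the 973 that stayed up, and 6.45% of the probes within the limits whose mean log2 ratio was above 0. On the reverse complement they stood in 2 members (1%), compared with 3.43%, and on either strand in 43 (21.5%), compared with 9.9%. The members' share was thus above that of the other sets on the printed strand and below it on the reverse complement, where 2.88% of the 973 held the letters. They stood in 7 of the 23 members called higher at 12 h and in 34 of the other 177. The letters ATTTA, the core of AU-rich elements that shorten the life of many messenger RNAs, stood on either strand in 32 members (16%), compared with 14.1% of the probes within the limits. A match describes the letters of a probe and is not a site in use. Neither count was tested.

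Some members read overlapping sequence and are not independent of each other. No sequence was shared in full, but 3 pairs (6 probes) had at least 20 bases in common. Over the 12 arrays the log2 ratios within these pairs had correlations of 0.79 to 0.99, which share the arrays and part of the target. Several further members may read the same gene, so the 200 are probes and not a count of genes.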

How the data were processed

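RNA of 12 samples was measured on 12 Agilent 2-colour arrays with Cy3-labelled sample and Cy5-labelled reference and no dye swap, per the labels. The deposited scanner files hold intensity values per spot from Feature Extraction 7.5.1, and the processed signals are intensity values after background subtraction and dye normalization by that program, per the file headers. A series table that the authors deposited is in log10. After centring each probe, its columns correlated with the scanner log ratios at 0.863 to 0.970, so its values rose with sample over reference. Its column medians were 2.98, and its exact scaling and the genome build of the probes stay unknown.

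The log2 ratio of the processed signals was averaged over spots of a probe (42034 probe spots, 42006 probes; 2256 control spots left out). Probes with Cy3 well above background on at least 2 arrays were tested (41754) with lmFit and eBayes of limma 3.58.1 (R 4.3.3) in 1 fit of 8 times with 4 residual degrees of freedom, with Benjamini-Hochberg adjustment over all of them. The number of arrays limits the precision. On simulated data of 41754 probes with 200 changed, the comparison of 12 h recovered 0% at a log2 change of 0.25, 7.5% at 0.5 and 73.5% at 1. False calls there were 0, 1 and 13. That setting does not match 48 h, where 4992 probes were called higher and 3670 lower in the data, so no recovery is given for 48 h. Alternatives were normexp with an offset of 50 or 0 and loess, Cy3 alone, the deposited table, centring, filters, thresholds, array weights, the replicate number as a block and leaving out arrays.

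The members and lists were chosen with earlier results of these data known. The rule named the 2 members with the largest change at 24 h and the 2 that fell most at 48 h among those called, by probe name, and 3 further probes are named outside it. Gene lists and cell type markers were not run, since no table used here pairs probes with genes. Base composition and letters come from the probe sequences in the scanner files, and gene positions from RefSeq.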

Additional observations from a re-analysis of the deposited data

How the results depend on the processing

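The members' median at 12 h against 3 and 6 h was above 0 in every alternative run that holds the sample dye. It ranged from 0.21 with Cy3 alone, where the cause of the lower value was not tested, to 0.37 with the replicate block. With 1 array left out, other than the 3 h or the 12 h array, it was 0.33 to 0.36. The number called higher, 23, was 87 with an offset of 50 and 4 with Cy3 alone, at the shares given above. It was 35 of 186 probes (18.8%, compared with 0.497% of all probes) well above background on all 12 arrays. With the replicate block it was 9 (4.50%, compared with 0.0982%). On the arrays of 0 to 12 h, where fewer arrays entered, it was 0, with 0.00% of all probes. Leaving out 1 array gave 7 to 23, with 0.0862% to 0.331% of all probes. By construction the number called higher was 2 (1.00%, compared with 0.0431% of all probes) at an adjusted p under 0.01. At 2-fold or more it was 0 (0.00%, compared with 0.0503%). At 48 h, again by construction, 30 were higher at an adjusted p under 0.01 (15.0%, compared with 6.73% of all probes). There 8 were lower (4.00%, compared with 4.19%). At 2-fold or more 3 of the 200 were higher, where the share of all probes was 0.999%. At that limit 2 were lower (1.00%, compared with 1.14%). Under both limits the share called lower was thus close to that of all probes. Against 12 h alone 12 were higher and 25 lower, at the shares given above, with a reversed median of -0.10. An offset of 50 gave 75 higher (37.5%, compared with 15.2%) and 27 lower (13.5%, compared with 11.6%). Leaving out 1 array gave 44 to 50 higher, with 10.6% to 12.0% of all probes. It gave 14 to 17 lower, with 7.34% to 8.79% of all probes, and a median of 0.13. The cause was not tested except where a construction is named.

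The rule found 124 members with an offset of 50, of which 113 were among the 200, 351 with limits of 0.4 and 116 with limits of 0.6. With Cy3 alone it found 205, of which 90 were among the 200. Leaving out 1 array gave 193 to 302, the highest without the first 24 h array, with 181 of the 200 among them. Deviations of same-numbered arrays had correlations of -0.0156 to 0.159 over 6 pairs of times, so replicate numbers were not taken to pair samples. With the block 52 of the 200 members were called higher at 48 h (26.0%, compared with 11.4% of all probes). The 15 members called lower there were a smaller share than the 8.14% of all probes. No value exists for 12 h without its array or for 48 h without its own, and the image analysis day could not be fitted as a block because each time lies in 1 day. The median net Cy3 signal of the members, 135 units, limits the changes of dim probes.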
